A study of Homo sapiens with 6 samples.

Results

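The response of HCT116 cells to the compound SP2509 was examined across all genes by RNA sequencing, by comparing 2 libraries from treated cells with 2 from untreated cells. These 4 libraries were chosen by their sample labels from the 6 of the series, and 16503 of the 60675 genes in the deposited table had enough counts to be tested. HCT116 is an established human colon cancer line. The untreated group consisted of wild-type cells labelled untreated, and the SP2509 group of wild-type cells given SP2509 at 3 uM for 48 h. DMSO is also named in the treatment protocol, and from the labels it is unclear if it was added to untreated cells. The remaining 2 libraries came from cells with an siRNA knockdown of PIR (siPIR, 48 h), whose treatment label also names SP2509. They entered the fit as a group of their own, and their values are given only beside genes switched on or off. Nothing in the labels says that replicates came from separate cultures, so the p-values reflect no more than the scatter among these libraries, and that scatter may be technical.

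SP2509 is known as an inhibitor of LSD1 (KDM1A), a histone demethylase that removes methyl groups from lysine residues of histone H3 as part of the CoREST repressor complex. Inhibition of LSD1 is known for relieving the silencing of enhancers and promoters, and in leukaemia cells for raising myeloid differentiation genes. Secreted ligands and proteases, surface receptors and channels, transcription factors and metabolic enzymes are treated in turn in what follows, after the genes with the largest changes. Members of stress-response, p53 and cell-cycle lists were left out of the ranking of largest changes.

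The 4 libraries held between 24945320 and 28816590 counts, and the CPM values of replicates correlated at 0.996 (untreated) and 0.994 (SP2509) on a log2 scale across genes, which are not independent replicates. Mitochondrial ribosomal RNA took 1.63% and 1.6% of the untreated and 6.33% and 6.93% of the SP2509 counts, and the 20 genes with the most counts took 12.3% and 12.3% of the untreated and 16.4% and 17.4% of the SP2509 counts. Without mitochondrial and ribosomal protein genes, 48.7% of calls were higher, against 48.8% with them, both under TMM scaling. Other scalings were not tried without these genes. Levels are given in CPM, counts scaled to a common library size by TMM, and a log2 fold change is that of SP2509 over untreated cells. A gene is said to rise or fall where its adjusted p was under 0.05 by edgeR's quasi-likelihood test, which 33.5% of tested genes did upward (5521) and 35.1% downward (5795). Because so many genes passed, a second test against a 2-fold change (edgeR's glmTreat, adjusted p under 0.05) was used for large changes. It called 8.03% of genes higher (1326) and 9.9% lower (1634), against which the counts of each gene group are to be read. Over all tested genes the median was -0.04 on the log2 scale, -0.27 under upper-quartile scaling and -0.43 under total counts. Of the calls at adjusted p under 0.05, 48.8% were higher under TMM, 36.2% under upper-quartile scaling and 28.3% under total counts, and of the calls past the 2-fold test 44.8%, 27.9% and 19.3%. With DESeq2 57.7% of 2-fold calls were higher. Fewer cells of a type and less RNA per cell cannot be told apart in these bulk samples.

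The labelled cell type was checked against markers. Of 16 colon epithelial markers, 2 had at most 3 counts in every library, and the list summed to 3672 and 3602 CPM in untreated and 4662 and 4714 CPM in SP2509 libraries. Most of it came from the keratins KRT8, KRT18 and KRT19, of which KRT19 stood at 723 and 683 against 1406 and 1511 CPM. The intestinal markers CDH17, LGALS4, MUC2 and GPA33 had at most 8 counts in any library. HNF4A, a transcription factor, stood at 9.79 and 9.23 against 4.28 and 5.005 CPM. EPCAM, an epithelial adhesion molecule, stood at 203 and 221 against 329 and 341 CPM, and CDX2, an intestinal transcription factor, at 15.8 and 14.3 against 9.39 and 9.43 CPM. KRT20, a keratin of differentiated colon epithelium, fell from low levels (1.99 and 2.69 against 0.236 and 0.31 CPM), and CDX1 was at 0. Leukocyte markers summed to 0.664 and 0.696 CPM in untreated and 1.49 and 1.47 CPM in SP2509 libraries, with PTPRC, CD3E, CD3D, MS4A1 and NKG7 at 0. Fibroblast markers summed to 22.8 and 25.8 against 22.1 and 20.8 CPM, nearly all of it COL1A1, with COL1A2, FAP and POSTN at 0. Endothelial markers summed to 8.99 and 7.34 against 15.7 and 16.1 CPM, most of it ESAM (7.05 and 5.85 against 15.1 and 15.6 CPM), with CDH5 and CLDN5 at 0. VWF, another endothelial marker, went the other way (1.47 and 0.98 against 0.353 and 0.31 CPM). KDM1A, the target gene, stood at 194 and 193 against 146 and 141 CPM (log2 fold change -0.43 with an SE of 0.092, edgeR adjusted p = 0.00117). TERT, named in the title of the series, fell by 1.58 on the log2 scale (7.25 and 7.05 against 2.44 and 2.33 CPM). PIR stood at 14.4 and 14.6 against 14.8 and 11.8 CPM (log2 fold change -0.12 with an SE of 0.125, edgeR adjusted p = 0.406). With upper-quartile scaling PIR passed the threshold at -0.36 (edgeR adjusted p = 0.0224). Scaling by total counts alone put it at -0.51 (edgeR adjusted p = 0.00246).

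The genes with the largest rises encode parts of the epithelial basement membrane and cell surface, keratins, and growth factors. LAMB3, the beta chain of laminin-332, an adhesive protein of epithelial basement membranes, stood at 52.5 and 54.1 CPM in the untreated libraries and 1245 and 1434 CPM in the SP2509 libraries (ENSG00000196878, chromosome 1, 209614870 to 209652466, minus strand; log2 fold change 4.65 with an SE of 0.164, edgeR adjusted p = 4.64e-10). LAMA3, the alpha chain of the same laminin, stood at 13.6 and 14.4 CPM in the untreated libraries and 248 and 251 CPM in the SP2509 libraries (chromosome 18, 23689443 to 23956222, plus strand; log2 fold change 4.16 with an SE of 0.11, edgeR adjusted p = 1.13e-10). The SP2509 libraries thus lay above the untreated libraries in both chain genes, without overlap. Groups did not overlap in 86.9% of all genes tested, in either direction.

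CPA4, a carboxypeptidase, stood at 5.12 and 4.3 against 98.4 and 117 CPM (log2 fold change 4.51). PMEPA1, a membrane protein known as a TGF-beta target that dampens SMAD signalling, stood at 2.35 and 2.59 against 41 and 42.6 CPM (4.08). GEM, a small GTPase that inhibits calcium channels, went from 17.3 and 16.8 to 294 and 258 CPM (4.02). In each of these 3 genes both SP2509 libraries lay far above both untreated libraries, which follows from choosing genes by their rise. The share of all genes without overlap was 86.9%, in either direction. FHL2, a LIM-domain co-regulator, stood at 34.4 and 34.5 against 477 and 501 CPM (3.83). KRT15, a keratin of basal epithelial cells, stood at 10.3 and 8.66 against 129 and 135 CPM (3.80), beside KRT80 (5.86 and 7.12 against 275 and 289.9 CPM) and KRT16 (0.498 and 0.696 against 23 and 24.8 CPM). KRT16 has close relatives among which reads may be divided, so its value is uncertain. In every one of these genes the 2 libraries of a group lay close together relative to the distance between the groups.

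**Figure D1:**
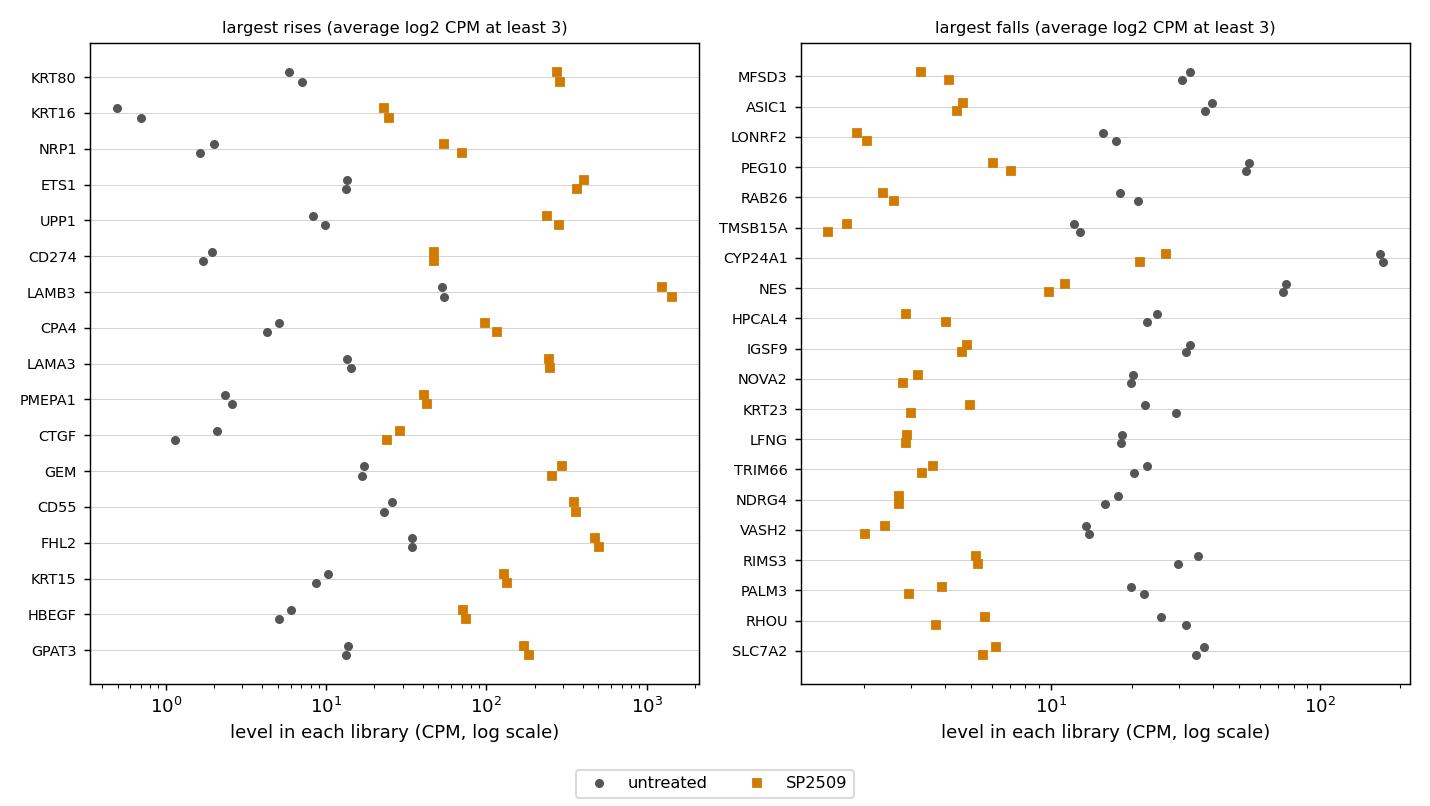
Levels (CPM, log scale) of 17 of the 20 largest rises (left) and the 20 largest falls (right) among protein-coding genes averaging 3 or more in log2 CPM and outside the stress, p53 and cell-cycle lists, with a point for each of the 2 untreated (circles) and 2 SP2509 libraries (squares). The rises span larger distances than the falls. Genes were chosen by the size of their change, so the gap between groups in each row follows from the choice.

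The largest falls were smaller than the largest rises. They included MFSD3, ASIC1, LONRF2 and PEG10 (log2 fold changes -3.10, -3.08, -3.06 and -3.03). RAB26 (-2.97), CYP24A1 (-2.82) and NES (-2.82) were also among them. With smaller falls than these, several further genes of the ranking are known from neurons. HPCAL4, a neuronal calcium sensor, stood at 24.8 and 22.7 CPM in the untreated libraries and 2.87 and 4.03 CPM in the SP2509 libraries (log2 fold change -2.78 with an SE of 0.15, edgeR adjusted p = 1.31e-08). NOVA2, a neuronal splicing regulator, stood at 20.2 and 19.7 against 3.18 and 2.79 CPM (log2 fold change -2.74), and RIMS3, a presynaptic protein, at 35.1 and 29.7 against 5.22 and 5.31 CPM (-2.62). IGSF9, an immunoglobulin superfamily member of synapses, stood at 32.9 and 31.8 against 4.83 and 4.66 CPM (-2.77) and NDRG4 at 17.8 and 15.9 against 2.71 and 2.72 CPM (-2.63). These 5 genes were lower in both SP2509 libraries than in either untreated library, which follows from choosing genes by their fall. Of all genes tested, 86.9% had groups without overlap in either direction. LFNG, a glycosyltransferase that modifies Notch receptors, fell by 2.66 on the log2 scale (18.4 and 18.2 against 2.91 and 2.87 CPM). SLC7A2, a transporter of arginine and other cationic amino acids, fell by 2.60 (37.2 and 34.5 against 6.25 and 5.59 CPM). VASH2, which removes the terminal tyrosine of alpha-tubulin, fell too (-2.63), as did RHOU, a small GTPase (-2.61), TRIM66 (-2.64), the keratin gene KRT23 (-2.69) and PALM3 (-2.61).

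**Figure D2:**
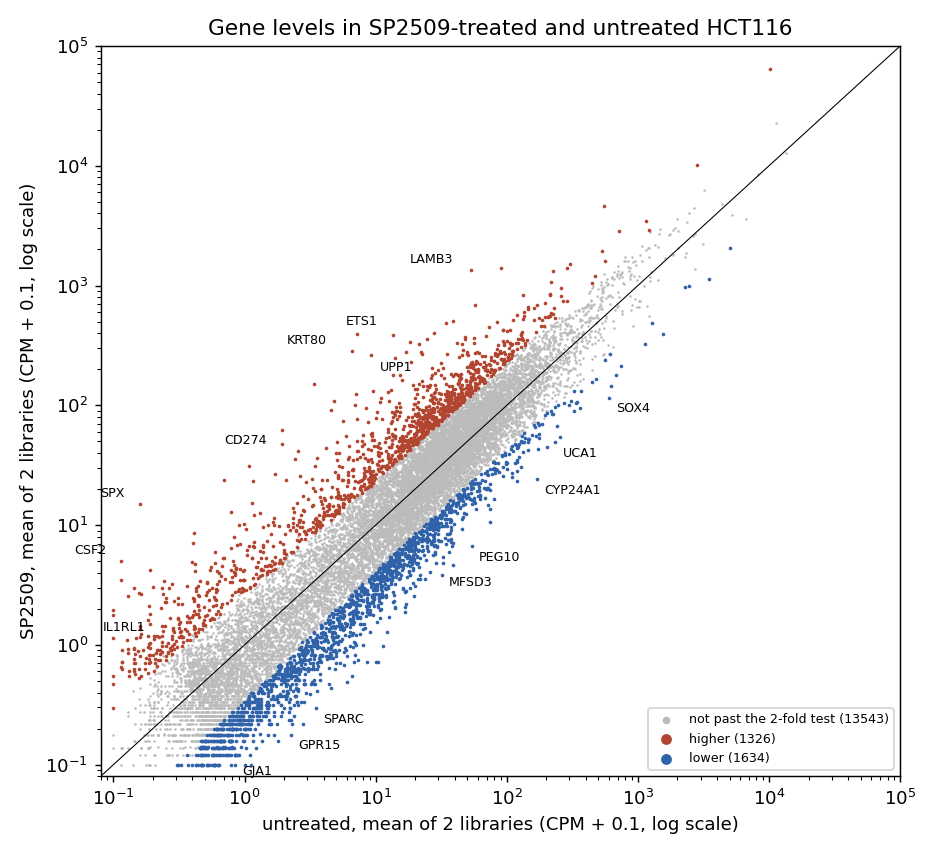
Mean level of each of the 16503 tested genes in the 2 untreated (horizontal axis) and 2 SP2509 libraries (vertical axis), in CPM plus 0.1 on log scales, with genes past the 2-fold test in red (1326 higher) and blue (1634 lower) and the line of equal levels. Rises reach farther from the line than falls, and several genes on the left, such as SPX and CSF2, start near 0.

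Promoter sequences of the genes with the largest rises were examined for short motifs. RefSeq promoter windows (GRCh38.p14, 300 bases from 250 before to 50 after the start) were found for 11444 of the tested genes. The AP-1 motif TGANTCA, bound by FOS and JUN proteins, was present on either strand in 4.69% of these windows. It was present in 8.71% of the 930 windows of genes higher past the 2-fold test and in 4.61% of the 1106 windows of genes lower past it. Among the 87 higher genes with more than an 8-fold change it was present in 19, or 21.8%. Members of the stress, p53 and cell-cycle lists were not removed from any of these groups. A composite motif of C/EBP and ATF factors, TGATGNAAN, was present in 1.67% of all windows, 4.3% of the higher, 1.08% of the lower and 10.3% of the group over 8-fold. The TATA motif TATAAA was present in 5.73%, 8.92%, 7.23% and 19.5% of these groups and the GC box GGGCGG in 69.6%, 69.6%, 65.4% and 50.6%. The median GC content was 65.3% over all windows and 59.3% in the group over 8-fold, so the base composition of that group differs from that of the rest. The cyclic AMP response element TGACGTCA was present in 3.19% of all windows, 3.76% of the higher, 1.63% of the lower and 4.6% of the group over 8-fold. The TEAD motif GGAATG was present in 10.7% of all windows and 8.05% of the group over 8-fold, and the E-box CACGTG in 10.1% and 8.05%. All motifs were searched on both strands. Matches in the group over 8-fold include stress-list genes, such as DDIT3 for AP-1 and ATF3 and ASNS for C/EBP-ATF. These shares are descriptions without a test, and a match shows only that the letters occur.

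The 250 bases before the start are shown for the named protein-coding genes that rose more than 8-fold and held an AP-1 or C/EBP-ATF match there. Members of the stress lists were left out except ASNS, a metabolic gene. Capitals mark AP-1 matches in LAMA3, CPA4, MMP10, CXCL8, RAET1L and IL1RL1 and C/EBP-ATF matches in ASNS and IL20RB. Sequences run 5′ to 3′ on the gene's strand and are from RefSeq, GRCh38.p14. The windows of LAMA3 and IL1RL1 lie inside the gene spans given elsewhere in the text, at a start within the gene. Counts per gene do not tell which start was used, and this was not tested.
LAMA3 (chr18:23872770-23873019, plus strand, matches 125 and 69 bases before the start)
LAMA3: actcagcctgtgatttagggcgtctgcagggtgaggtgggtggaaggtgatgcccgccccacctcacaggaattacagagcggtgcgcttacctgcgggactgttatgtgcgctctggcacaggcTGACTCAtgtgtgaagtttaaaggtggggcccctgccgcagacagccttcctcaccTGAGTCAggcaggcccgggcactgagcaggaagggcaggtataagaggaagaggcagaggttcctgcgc
CPA4 (chr7:130292911-130293160, plus strand, 48 and 15 bases before)
CPA4: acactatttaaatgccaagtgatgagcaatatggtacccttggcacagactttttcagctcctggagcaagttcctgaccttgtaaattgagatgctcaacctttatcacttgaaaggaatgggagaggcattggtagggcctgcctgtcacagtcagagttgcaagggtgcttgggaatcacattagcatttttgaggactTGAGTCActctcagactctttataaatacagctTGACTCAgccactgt
MMP10 (chr11:102780629-102780878, minus strand, 67 bases before)
MMP10: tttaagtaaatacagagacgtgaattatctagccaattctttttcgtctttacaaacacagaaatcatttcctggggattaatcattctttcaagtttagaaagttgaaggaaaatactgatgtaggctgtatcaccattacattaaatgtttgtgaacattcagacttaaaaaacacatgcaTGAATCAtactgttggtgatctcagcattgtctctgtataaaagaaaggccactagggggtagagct
CXCL8 (chr4:73740319-73740568, plus strand, 137 bases before)
CXCL8: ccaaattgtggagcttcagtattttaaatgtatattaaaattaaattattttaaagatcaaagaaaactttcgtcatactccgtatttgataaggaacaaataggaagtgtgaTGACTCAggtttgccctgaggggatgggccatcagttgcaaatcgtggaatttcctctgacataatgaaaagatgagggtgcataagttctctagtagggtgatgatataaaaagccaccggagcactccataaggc
RAET1L (chr6:150025533-150025782, minus strand, 66 bases before)
RAET1L: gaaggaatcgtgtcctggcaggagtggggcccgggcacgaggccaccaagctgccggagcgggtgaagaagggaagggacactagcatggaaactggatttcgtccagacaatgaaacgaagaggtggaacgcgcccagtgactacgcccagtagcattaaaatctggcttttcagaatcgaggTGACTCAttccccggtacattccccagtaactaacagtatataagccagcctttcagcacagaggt
IL1RL1 (chr2:102337007-102337256, plus strand, 191 bases before)
IL1RL1: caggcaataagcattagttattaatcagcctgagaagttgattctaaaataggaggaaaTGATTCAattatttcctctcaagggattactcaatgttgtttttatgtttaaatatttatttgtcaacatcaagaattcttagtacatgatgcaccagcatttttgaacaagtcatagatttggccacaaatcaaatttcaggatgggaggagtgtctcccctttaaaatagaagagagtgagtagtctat
ASNS (chr7:97872409-97872658, minus strand, 68 bases before)
ASNS: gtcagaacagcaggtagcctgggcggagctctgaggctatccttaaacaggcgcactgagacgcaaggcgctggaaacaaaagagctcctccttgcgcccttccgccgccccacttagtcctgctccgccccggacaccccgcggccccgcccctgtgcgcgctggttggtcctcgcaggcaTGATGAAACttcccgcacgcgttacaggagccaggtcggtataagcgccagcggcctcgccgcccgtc
IL20RB (chr3:136957733-136957982, plus strand, 76 bases before)
IL20RB: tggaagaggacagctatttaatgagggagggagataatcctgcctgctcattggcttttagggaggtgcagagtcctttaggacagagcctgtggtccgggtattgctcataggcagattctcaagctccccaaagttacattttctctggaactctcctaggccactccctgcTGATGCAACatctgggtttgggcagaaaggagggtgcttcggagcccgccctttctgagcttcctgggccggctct
Of the 20 largest rises 11 had a promoter window, and an AP-1 match was present in 2 of them, LAMA3 and CPA4.

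Secreted factors changed in both directions. Of 277 tested genes in the 19 lists of secreted products, 90 rose and 122 fell, 47 and 50 of them past the 2-fold test (39 and 22 with DESeq2, 36 and 76 with total counts), with a median log2 fold change of -0.27. Genes of the EGF ligand family were split: of 9, 4 rose and 4 fell, 2 and 2 past the 2-fold test (2 and 0 with DESeq2). HBEGF, a membrane-anchored ligand of the EGF receptor, stood at 6 and 5.06 CPM in the untreated libraries and 71.5 and 74.9 CPM in the SP2509 libraries (log2 fold change 3.72 with an SE of 0.119, edgeR adjusted p = 2.14e-10), and TGFA at 62.9 and 60.5 against 254 and 289 CPM (log2 fold change 2.14). These were the 2 that passed the 2-fold test upward, and EGF itself and NRG4, a ligand of other receptors of that family, the 2 that passed it downward, from under 1 CPM. Of 7 fibroblast growth factor genes, 2 rose and 1 fell, with a median of 0.25 that turned to -0.14 with total counts.

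Among 15 growth factors of vessels and blood cells, 7 rose and 4 fell. CSF2, the granulocyte-macrophage colony-stimulating factor, was near 0 in untreated cells and is described with the genes switched on. VEGFA, the main angiogenic factor, stood at 54.6 and 60.5 against 191 and 202 CPM (1.77) and PDGFB, a platelet-derived growth factor, at 9.79 and 8.44 against 31.1 and 39.6 CPM (1.95). ANGPTL4, a lipoprotein lipase inhibitor, stood at 20.6 and 12.1 against 59 and 75.4 CPM (2.03), with untreated libraries that differed from each other, and its call was lost with a replicate block over the 4 libraries. KITLG, the stem cell factor, fell from 1553 and 1544 to 447 and 339.8 CPM (-1.98), and ANGPT2, a ligand of the TIE2 receptor, from 9.35 and 11 to 1.89 and 1.01 CPM (-2.81).

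Interleukins and IL-6 family cytokines leaned upward. Of 15 tested, 9 rose and 2 fell, 6 and 2 past the 2-fold test (5 and 1 with DESeq2), with a median of 1.14 (0.76 with total counts). CLCF1, an IL-6 family cytokine, stood at 3.15 and 4.49 against 23.6 and 23.3 CPM (2.63), IL11 at 1.19 and 1.39 against 6.01 and 7.41 CPM (2.38) and IL12A, a subunit of an interleukin of T cell activation, at 2.3 and 2.21 against 12.4 and 10.5 CPM (2.34). IL1RN, the interleukin 1 receptor antagonist, fell from 0.885 and 0.791 to 0.157 and 0.194 CPM. Of 5 chemokines 4 rose. CXCL8, the neutrophil chemokine whose promoter is shown above, stood at 0.774 and 0.696 against 7.23 and 8.5 CPM (3.41). Of 7 TNF superfamily ligands, 1 rose and 5 fell, among them TNFSF18 (-2.06).

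More genes of the WNT and TGF-beta ligand lists fell than rose. Of 18 WNT ligands and secreted modulators, 4 rose and 12 fell, 4 and 5 past the 2-fold test (4 and 3 with DESeq2; median -0.82). DKK1, a secreted inhibitor of WNT signalling, stood at 329 and 327 CPM in the untreated libraries and 87.2 and 93 CPM in the SP2509 libraries (log2 fold change -1.86 with an SE of 0.131, edgeR adjusted p = 1.09e-07). WNT11 (4.37 and 4.49 against 1.02 and 0.659 CPM), WNT6 (4.87 and 4.33 against 1.18 and 0.815 CPM) and WNT5B (0.774 and 0.759 against 0.0786 and 0.0388 CPM) fell, while WNT7A (1.05 and 0.727 against 8.56 and 11.8 CPM), WNT7B (8.85 and 7.18 against 26.6 and 32.7 CPM) and WNT9A (7.69 and 7.4 against 20.1 and 26.4 CPM) rose, as did the WNT-binding antagonist FRZB (1.92). Of 14 TGF-beta family ligands, 2 rose and 6 fell, 1 and 3 past the 2-fold test (1 and 1 with DESeq2). BMP4 stood at 249.5 and 259 CPM in the untreated libraries and 62.9 and 45 CPM in the SP2509 libraries (log2 fold change -2.23 with an SE of 0.138, edgeR adjusted p = 3.67e-08). BMP6 and GDF11 fell (log2 fold changes -1.53 and -1.48), and GDF15, a cytokine of cell stress, rose by 1.38. Of 13 BMP and activin antagonists and binding proteins, 3 rose and 6 fell. FSTL1 (-2.05), LTBP1 (-1.66), CHRD (-1.51) and FSTL4 (-3.40) fell and LTBP2 (2.10) and NOG (1.70) rose.

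Secreted proteases and their inhibitors were split between rises and falls. Of 17 plasminogen-system and serpin genes, 9 rose and 7 fell, 5 and 2 past the 2-fold test (5 and 0 with DESeq2), with a median of 0.82 (0.43 with total counts). PLAUR, the urokinase receptor, stood at 21.9 and 20.2 against 103 and 109 CPM (log2 fold change 2.33) and PLAU, urokinase itself, at 36 and 33.6 against 125 and 139 CPM (1.92). Protease and receptor thus both rose. SERPINB8 rose by 1.67, and SERPING1, the C1 inhibitor, and SERPINA5 fell (log2 fold changes -1.67 and -1.36).

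Of 16 matrix metalloproteinases and TIMPs, 4 rose and 9 fell (median -0.72). MMP1, interstitial collagenase, had 1 and 1 counts in the untreated and 45 and 81 in the SP2509 libraries, and MMP10, stromelysin 2, had 2 and 0 counts in the untreated and 19 and 32 in the SP2509 libraries. MMP11 fell from 12.4 and 11.8 to 3.22 and 3.57 CPM and TIMP3, a matrix-bound inhibitor, from 15.8 and 14.8 to 5.38 and 4.62 CPM. MMP7 was low throughout (0.885 and 0.474 against 0.236 and 0.0388 CPM), and its call was lost without untreated replicate 1 and without SP2509 replicate 2. All 18 ADAM and ADAMTS genes were called, 5 higher and 13 lower, with 1 and 6 past the 2-fold test (median -0.78). ADAMTS16 rose from 0.774 and 0.696 to 4.48 and 3.38 CPM, and ADAMTS15 (3.46 and 3.07 against 0.393 and 0.349 CPM), ADAM11 (8.6 and 9.33 against 1.77 and 1.63 CPM), ADAMTS2 (10.1 and 8.7 against 2.91 and 1.86 CPM) and ADAM22 (23.3 and 23.9 against 8.25 and 6.83 CPM) fell. Of 14 kallikreins and serine protease inhibitors, 9 rose and 3 fell (median 0.60, or 0.21 with total counts). KLK6 stood at 20.4 and 21.5 against 73 and 94 CPM (1.99), KLK5 at 0.36 and 0.316 against 2.08 and 2.95 CPM (2.87) and SLPI, an inhibitor of leukocyte proteases, at 0.332 and 0.38 against 3.34 and 3.3 CPM (3.21). TFPI, the tissue factor pathway inhibitor, rose by 1.48, and KLK4 fell by 2.80.

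Matrix genes mostly fell. Of 23 matricellular and cross-linking genes, 6 rose and 12 fell, 2 and 5 past the 2-fold test. The 2 were CYR61 (7.41 and 6.42 against 130 and 119 CPM, 4.16) and CTGF (2.07 and 1.14 against 28.9 and 24.1 CPM, 4.02), matricellular proteins known as targets of YAP and TEAD. SPARC fell from 4.04 and 2.75 to 0.353 and 0.0388 CPM (-4.10), the osteopontin gene SPP1 from 2.07 and 1.93 to 0.196 and 0.427 CPM, NOV from 4.4 and 3.89 to 0.825 and 0.504 CPM and the elastic fibre gene FBLN5 from 6.94 and 5.85 to 1.41 and 1.47 CPM. Of 25 collagens, 3 rose and 13 fell, with COL9A3 (51.4 and 54.2 against 22.1 and 20.1 CPM), COL9A2 (4.26 and 5.5 against 1.34 and 1.36 CPM), COL4A6 (3.9 and 4.21 against 1.45 and 1.09 CPM) and COL15A1 (0.802 and 0.727 against 0.0786 and 0.116 CPM) lower and COL11A2 (4.95 and 6.23 against 14.4 and 15.2 CPM) and COL20A1 (0.083 and 0.285 against 0.982 and 1.47 CPM) higher past the 2-fold test, while DESeq2 called 0 and 0 past it. Of 14 proteoglycans, 4 rose and 8 fell. SDC4, a syndecan of focal adhesions, rose (86.6 and 80.3 against 483 and 501 CPM, 2.56), while SDC3, CSPG4, GPC2 and GPC3 fell (log2 fold changes -1.30, -1.76, -1.63 and -1.84).

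Peptide hormones and complement and coagulation genes completed the secreted lists. Of 19 hormones and neuropeptides, 9 rose and 5 fell, with 4 higher and 0 lower past the 2-fold test (5 lower at adjusted p under 0.05; 3 higher and 0 lower past it with DESeq2). STC2, stanniocalcin 2, stood at 51.6 and 47.6 CPM in the untreated libraries and 252 and 279.8 CPM in the SP2509 libraries (log2 fold change 2.42 with an SE of 0.114, edgeR adjusted p = 4.47e-09). EDN1, the vasoconstrictor endothelin 1, stood at 0.304 and 0.221 against 3.5 and 2.48 CPM (3.47), NUCB2, the precursor of nesfatin 1, at 26.7 and 28.6 against 99.7 and 86.4 CPM (1.75) and the gut hormone gene PYY at 0.498 and 0.38 against 1.96 and 2.6 CPM (2.36). Of 21 complement and coagulation genes, 4 rose and 10 fell. CD55, which speeds the decay of complement convertases, stood at 25.8 and 22.9 CPM in the untreated libraries and 351 and 362 CPM in the SP2509 libraries (log2 fold change 3.87 with an SE of 0.11, edgeR adjusted p = 1.31e-10). CD59, which blocks the membrane attack complex, stood at 105 and 114 against 251 and 282 CPM (1.28), and F3, tissue factor, at 21.3 and 20.6 against 74.5 and 71.1 CPM (1.80). The complement genes CFD (-1.49), C3 (-2.81) and CFI (-4.68) and the coagulation factor gene F10 (-2.06) fell from 29.4 CPM or less. Of 7 mucins and trefoil factors, 1 rose and 2 fell, with OVGP1 (1.37) past the 2-fold test.

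**Figure D3:**
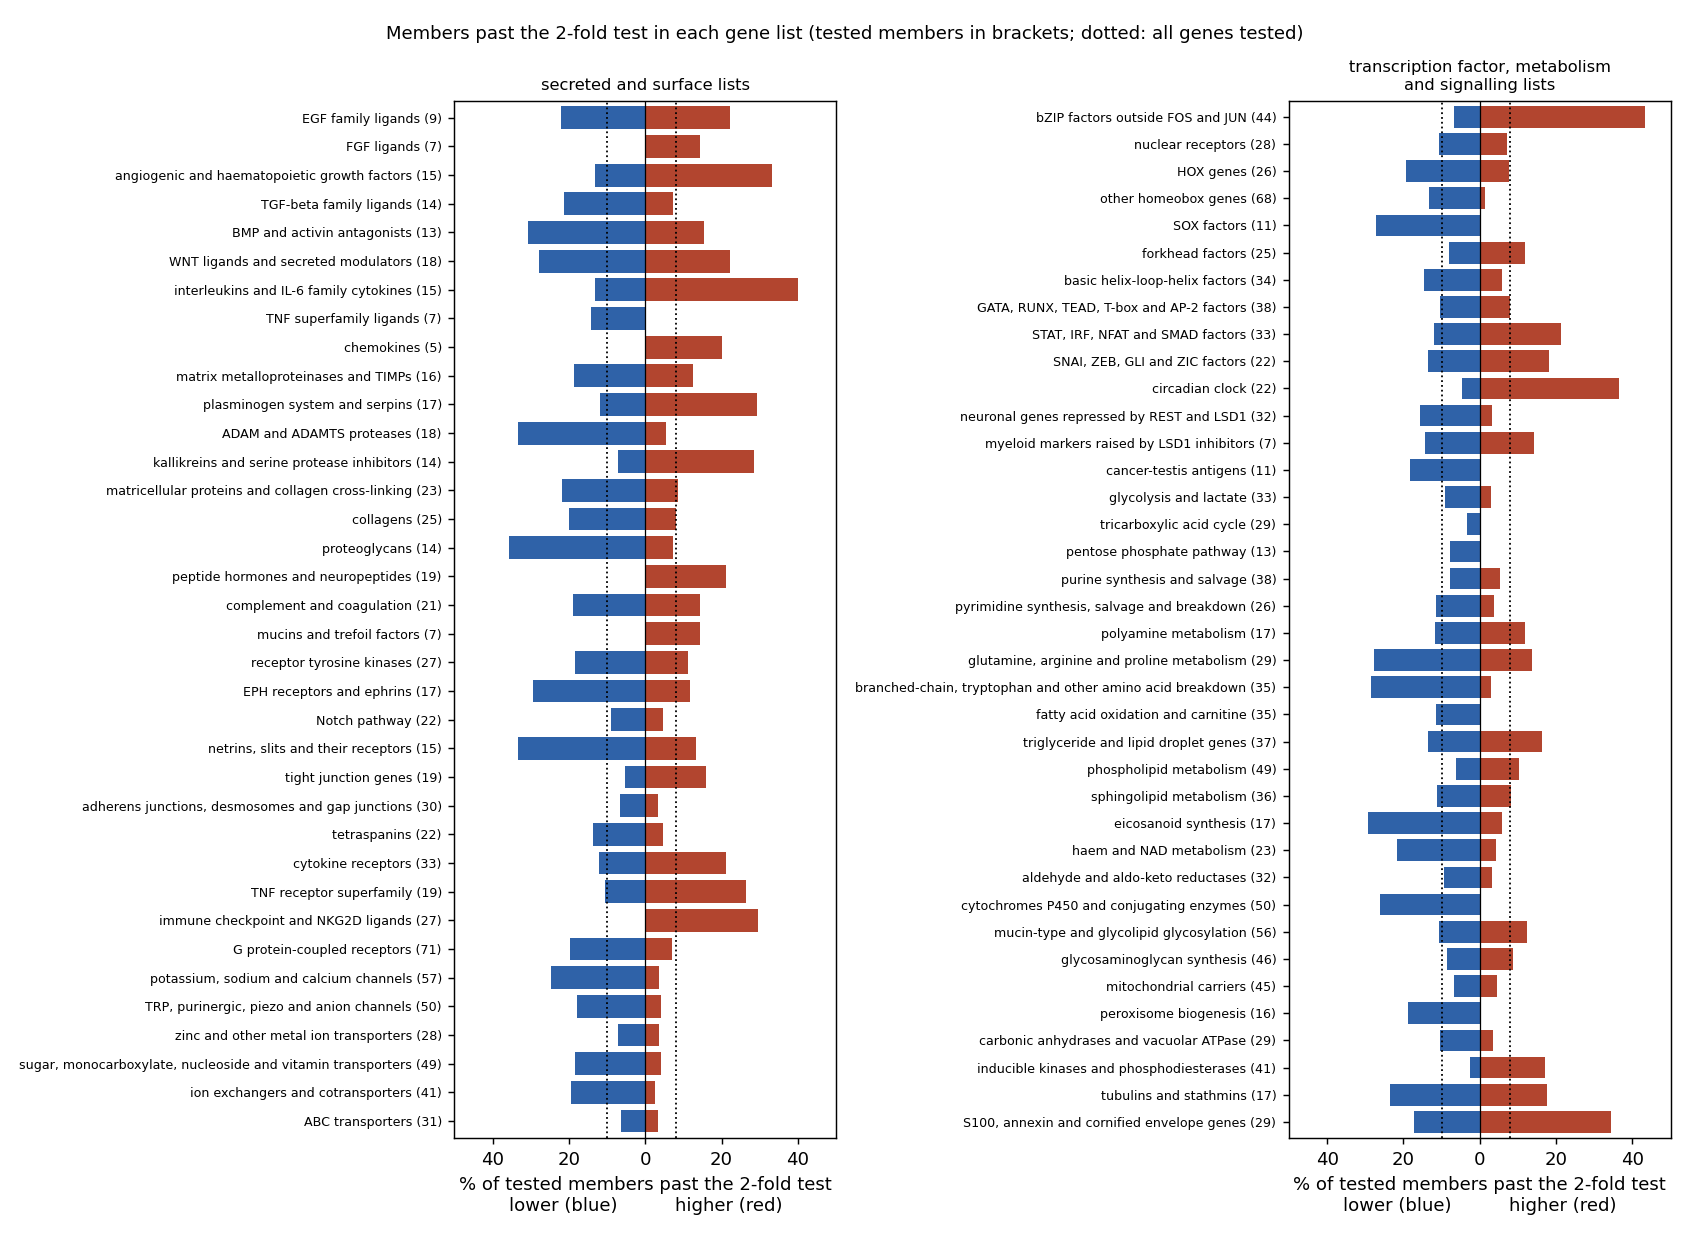
Share of tested members of each gene list that were higher (red, right) or lower (blue, left) past the 2-fold test, for lists of secreted and surface products (left panel) and of transcription factors, metabolism and signalling (right panel), with the number of tested members in brackets. Dotted lines mark the shares over all genes tested, 8.03% higher and 9.9% lower; bZIP factors and interleukins reach farthest to the right.

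Surface genes had 179 members higher and 246 lower of 557 tested in 17 lists, 47 and 87 past the 2-fold test (37 and 36 with DESeq2, 35 and 149 with total counts; median -0.19). More receptor tyrosine kinases fell than rose, with 6 of 27 higher and 15 lower, 3 and 5 past the 2-fold test (3 and 3 with DESeq2; median -0.36). AXL, a receptor of GAS6, stood at 35 and 35.1 CPM in the untreated libraries and 258 and 281 CPM in the SP2509 libraries (log2 fold change 2.94 with an SE of 0.102, edgeR adjusted p = 4.64e-10). EGFR stood at 171 and 167 CPM in the untreated libraries and 685 and 697 CPM in the SP2509 libraries (log2 fold change 2.03 with an SE of 0.0961, edgeR adjusted p = 4.64e-09). DDR2, a collagen receptor, rose by 2.07, and the growth factor receptors FGFR3 (61 and 63.2 against 17.1 and 15.4 CPM), RET (19.8 and 18.2 against 5.15 and 5.43 CPM) and PTK7 (180.1 and 174 against 54.2 and 52.1 CPM) fell. ERBB4 fell from under 1 CPM. Of 17 EPH receptors and ephrins, 4 rose and 11 fell. EPHA2 stood at 140.3 and 127 against 808 and 872 CPM (2.65) and EFNB2, a ligand, at 54.1 and 52.5 against 167 and 169 CPM (1.66), whereas EPHA1 (-1.40), EPHA10 (-1.60), EPHB1 (-3.76) and EFNA5 (-2.67) fell.

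Receptors of cytokines and of the TNF family and ligands of immune receptors leaned upward. Of 33 cytokine receptors, 18 rose and 8 fell, 7 and 4 past the 2-fold test (7 and 0 with DESeq2), with a median of 0.49 (0.10 with total counts). IL6R stood at 5.2 and 4.49 CPM in the untreated libraries and 38.4 and 41.2 CPM in the SP2509 libraries (log2 fold change 3.03 with an SE of 0.126, edgeR adjusted p = 1.63e-09). IL1RAP, the shared accessory chain of interleukin 1 family receptors, stood at 6.64 and 5.63 against 42.5 and 48 CPM (2.88), and IL20RB, whose promoter is shown above, at 0.609 and 0.38 against 5.38 and 6.28 CPM (3.53). IL31RA went from 0.387 and 0.253 to 4.16 and 5.16 CPM. The receptor chains IL17RB, IL22RA1, IL20RA and IL11RA fell (log2 fold changes -1.56, -1.72, -1.87 and -1.97), so the 2 chains of the interleukin 20 receptor moved in opposite directions. Of 19 TNF receptor superfamily genes, 11 rose and 6 fell (median 0.48, or 0.09 with total counts). TNFRSF12A, the TWEAK receptor, stood at 44.2 and 35.6 against 162 and 202 CPM (2.19). The TRAIL receptor genes TNFRSF10A, TNFRSF10B and TNFRSF10D, some of them p53 targets, rose by 2.09, 2.04 and 1.66. TNFRSF19 (5.62 and 5.63 against 0.589 and 0.582 CPM) and TNFRSF13C (2.02 and 1.55 against 0.314 and 0.116 CPM) fell.

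Of 27 immune checkpoint and NKG2D ligand genes, 15 rose and 6 fell, with 8 higher and 0 lower past the 2-fold test, also with DESeq2, and a median of 0.75 (0.36 with total counts). CD274, the gene of PD-L1, stood at 1.94 and 1.71 CPM in the untreated libraries and 47.3 and 47 CPM in the SP2509 libraries (chromosome 9, 5450503 to 5470566, plus strand; log2 fold change 4.69 with an SE of 0.133, edgeR adjusted p = 1.31e-10). The NKG2D ligands mark stressed cells for natural killer cells. ULBP1 stood at 7.52 and 6.8 against 48.2 and 52.8 CPM (2.81), ULBP2 at 5.2 and 5.6 against 31.6 and 29.1 CPM (2.49) and RAET1L at 1.08 and 1.01 against 16.1 and 14 CPM (3.84). These genes form a family of similar sequences, so the division of reads among them is uncertain. In all 4 genes both SP2509 libraries lay far above both untreated libraries, which follows from naming genes past the 2-fold test. Groups without overlap made up 86.9% of all genes tested, in either direction.

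Ion channel genes fell more often than they rose. Of 57 potassium, sodium and calcium channel genes, 10 rose and 33 fell, 2 and 14 past the 2-fold test (1 and 10 with DESeq2), with a median of -0.66. ASIC1, a proton-gated sodium channel, stood at 39.7 and 37.5 against 4.67 and 4.46 CPM, CACNA2D2, a calcium channel subunit, at 29 and 27.9 against 4.91 and 6.91 CPM (-2.27) and KCNC4, a potassium channel, at 51.4 and 57.6 against 15.9 and 16.3 CPM (-1.76). SCN4A, a sodium channel, fell by 3.14. The 2 that rose past the 2-fold test were KCNJ14 (2.52 and 2.72 against 8.56 and 10.7 CPM) and ASIC3 (0.774 and 1.49 against 4.28 and 4.46 CPM), and the call of ASIC3 was lost with DESeq2. Of 50 TRP, purinergic, piezo and anion channels, 15 rose and 23 fell. P2RX7, an ATP-gated channel, fell from 2.68 and 2.85 to 0.236 and 0.233 CPM (-3.53), PKD2 from 27.8 and 27.8 to 9.27 and 7.02 CPM, ORAI2 from 32.9 and 31.1 to 9.47 and 10.2 CPM and ANO7 from 1.13 and 1.2 to 0.0786 and 0.155 CPM. TRPV3 (1.69 and 2.09 against 5.93 and 6.17 CPM) and BEST1 (0.443 and 1.9 against 5.34 and 4.34 CPM) rose, and the call of BEST1 was lost with 2 of the blocked fits.

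Of 71 G protein-coupled receptors, 21 rose and 36 fell, 5 and 14 past the 2-fold test (4 and 5 with DESeq2; median -0.35). GPRC5A stood at 216 and 173 against 674 and 751 CPM (1.87), ADORA2B, an adenosine receptor, at 24.5 and 25.7 against 75.2 and 87.1 CPM (1.69) and ADGRG1 at 35.2 and 36 against 102 and 116 CPM (1.62). ADORA1, another adenosine receptor, fell (7.33 and 7.68 against 1.89 and 1.32 CPM, -2.23), as did the sphingosine 1-phosphate receptor S1PR5 (-2.13), the WNT receptor FZD2 (-1.71) and LGR4 (-1.67), which amplifies WNT signalling. The 2 adenosine receptors thus moved in opposite directions.

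In 3 of 4 lists transporters fell more often than they rose. Of 49 transporters of sugars, monocarboxylates, nucleosides and vitamins, 10 rose and 24 fell, 2 and 9 past the 2-fold test (1 and 5 with DESeq2). SLC2A6 fell from 15.2 and 18.3 to 2.04 and 3.3 CPM, SLC2A4, the insulin-responsive glucose transporter, from 2.68 and 2.5 to 0.157 and 0.31 CPM, SLC16A13 from 5.28 and 5.57 to 0.982 and 1.05 CPM and SLC46A3 from 5.09 and 5.06 to 1.18 and 1.01 CPM, while SLC22A15 (4.26 and 5.31 against 27.1 and 27.8 CPM) and SLC2A9 (1.24 and 1.04 against 4.4 and 4.31 CPM) rose. Of 41 ion exchangers and cotransporters, 12 rose and 21 fell, 1 and 8 past the 2-fold test (1 and 3 with DESeq2). SLC12A4, a potassium chloride cotransporter, stood at 32.5 and 29.4 against 92.6 and 93.9 CPM. SLC26A2, a sulfate transporter, stood at 38 and 35.4 against 11.4 and 11 CPM. SLC8A2, SLC4A8 and ATP12A fell (log2 fold changes -2.60, -2.85 and -3.15). Of 31 ABC transporters, 7 rose and 14 fell, 1 and 2 past the 2-fold test. These are 3.23% and 6.45%, both under the shares of all genes tested (8.03% and 9.9%). ABCB1, the multidrug efflux pump, rose from 3.82 and 3.95 to 12.1 and 10 CPM (1.51), while ABCC2, a related pump for conjugated compounds, fell from 324 and 395 to 103 and 86.4 CPM (-1.93) and ABCG4 from 4.59 and 4.05 to 0.943 and 1.82 CPM. Of 28 metal ion transporters, 11 rose and 9 fell, 1 and 2 past the 2-fold test. SLC39A14 (132 and 128 against 404 and 419 CPM) was higher and SLC39A8 (35.4 and 37 against 14.8 and 13.6 CPM) and SLC30A3 (-1.44) were lower.

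Junction genes rose in part. Of 19 tight junction genes, 12 rose and 5 fell (median 0.57, or 0.18 with total counts). OCLN, occludin, stood at 21 and 20.9 against 58.7 and 63.5 CPM (1.54) and TJP1, the scaffold ZO-1, at 115 and 109 against 282 and 287 CPM (1.35). CLDN6 rose from 0.277 and 0.0632 to 1.81 and 1.36 CPM and CLDN2 fell from 0.664 and 0.474 to 0.157 and 0.0776 CPM. Of 30 genes of adherens junctions, desmosomes and gap junctions, 14 rose and 8 fell, with a median of 0.13 that turned to -0.26 with total counts. GJA1, connexin 43, had 32 and 19 counts in the untreated and 0 and 0 in the SP2509 libraries, at least 6.43-fold lower against a floor of 3 counts per library, and DSG4 fell from under 1 CPM. Of 15 netrins, slits and their receptors, 5 rose and 8 fell, with ROBO3 (1.34) higher and NTNG2 (-2.38), NTN5 (-2.12), SLIT1 (-1.95) and UNC5A (-1.48) lower. Of 22 Notch pathway genes, 5 rose and 10 fell. The fringe enzymes LFNG and MFNG went in opposite directions, MFNG rising from 2.27 and 2.59 to 10.8 and 8.92 CPM (2.03), and DTX4 fell by 1.23. Of 22 tetraspanins, 4 rose and 9 fell, with TSPAN5 (1.21) higher and TSPAN7 (-1.76), TSPAN10 (-1.77) and TSPAN2 (-2.94) lower.

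Among transcription factors, most bZIP genes rose. Of 388 tested genes in the 14 lists of transcription and differentiation, 147 rose and 143 fell, 50 and 49 past the 2-fold test (36 and 23 with DESeq2, 27 and 84 with total counts). Of 44 bZIP genes outside FOS and JUN, 34 rose and 8 fell, 19 and 3 past the 2-fold test (14 and 1 with DESeq2), with a median of 1.08 (0.70 with total counts). Several are also in the stress lists, such as ATF3, DDIT3 and XBP1. MAFF, a small MAF protein, stood at 13.3 and 11.7 CPM in the untreated libraries and 112 and 105 CPM in the SP2509 libraries (log2 fold change 3.11 with an SE of 0.112, edgeR adjusted p = 5.64e-10). CREB3L1 (1.02 and 0.98 against 0.118 and 0.0776 CPM) and CREB3L3 (1.71 and 1.23 against 0.196 and 0.0388 CPM), membrane-bound factors of the secretory pathway, fell. NFE2, a factor of blood cells, fell from 1.22 and 0.885 to 0.0393 and 0.116 CPM.

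Most circadian clock genes rose as well. Of 22, 19 rose and 2 fell, 8 and 1 past the 2-fold test (5 and 1 with DESeq2), with a median of 1.10 (0.71 with total counts). NFIL3, a repressor that is also a bZIP protein, stood at 29.6 and 29.7 CPM in the untreated libraries and 193 and 199 CPM in the SP2509 libraries (log2 fold change 2.72 with an SE of 0.111, edgeR adjusted p = 1.44e-09). NR1D1, the nuclear receptor REV-ERB alpha, stood at 46.2 and 39.7 CPM in the untreated libraries and 222 and 284 CPM in the SP2509 libraries (log2 fold change 2.56 with an SE of 0.181, edgeR adjusted p = 1.11e-07). BHLHE40, a repressor of clock genes, stood at 63.6 and 54.3 against 221 and 243 CPM (1.98) and ARNTL, the activator BMAL1, at 12 and 13.9 against 45.4 and 44.5 CPM (1.80). Activators and repressors of the clock thus both rose.

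Of 28 nuclear receptors, 13 rose and 7 fell, with a median of 0.13 that turned to -0.26 with total counts. RARA, a retinoic acid receptor, rose (24.7 and 22.2 against 56 and 60 CPM), and NR5A2 (3.54 and 3.07 against 0.589 and 0.815 CPM) and ESRRB (2.68 and 2.4 against 0.786 and 0.272 CPM) fell. Of 33 STAT, IRF, NFAT, MEF2 and SMAD genes, 16 rose and 11 fell (median 0.39, near 0 with total counts). SMAD3, a mediator of TGF-beta signals, stood at 57 and 52.9 against 201 and 216 CPM (1.93) and NFATC2 at 13.6 and 12.4 against 70.4 and 72.6 CPM (2.46), and MEF2D (1.93) also rose. SMAD6 and SMAD9, which belong to BMP signalling, fell (log2 fold changes -1.33 and -1.81). ID1, ID2 and ID3, inhibitors of helix-loop-helix factors and known BMP targets, fell: ID1 stood at 349 and 332 against 103 and 109 CPM (-1.69), ID2 at 89.5 and 83.2 against 27.4 and 27.4 CPM (-1.66) and ID3 at 205 and 202 against 48.5 and 40.5 CPM (-2.20). Of the 34 helix-loop-helix genes as a whole, 10 rose and 9 fell, ATOH8 falling from 7.05 and 6.48 to 0.903 and 0.349 CPM and MITF rising from 2.79 and 2.81 to 7.66 and 7.57 CPM. STAT6 and NFATC4 fell (log2 fold changes -1.31 and -1.45).

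Of 22 genes of the SNAI, ZEB, GLI and ZIC families, 10 rose and 8 fell. SNAI2 and ZEB1 are known as repressors of epithelial genes. SNAI2 stood at 0.83 and 0.538 CPM in the untreated libraries and 13.1 and 12.2 CPM in the SP2509 libraries (log2 fold change 4.18 with an SE of 0.204, edgeR adjusted p = 5.88e-09), and ZEB1 at 2.88 and 2.53 CPM in the untreated libraries and 19.8 and 14.9 CPM in the SP2509 libraries (log2 fold change 2.68 with an SE of 0.166, edgeR adjusted p = 4.05e-08). The epithelial adhesion genes EPCAM and CDH1 rose beside them, by 0.66 and 0.72. GLIS2 (1.82) and GLIS3 (1.66) rose, and GLI1, an effector and target of hedgehog signalling, fell from 5.92 and 6.64 to 1.02 and 0.737 CPM (-2.83), as did BCL11A and BCL6B (-2.25 and -2.53).

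Homeobox and SOX genes leaned downward. Of 26 HOX genes, 3 rose and 16 fell, 2 and 5 past the 2-fold test (0 and 4 with DESeq2; median -0.46). HOXA7 stood at 19.1 and 17.4 against 4.05 and 3.45 CPM (-2.28), HOXB8 at 36 and 34.1 against 10.4 and 11.7 CPM (-1.66), and HOXA13 and HOXC13 fell (log2 fold changes -1.78 and -2.0). HOXB9, next to HOXB8 in the cluster, rose from 22.7 and 21.9 to 54.2 and 57.6 CPM (1.33), as did HOXC8 (1.74). Of 68 other homeobox genes, 12 rose and 40 fell, 1 and 9 past the 2-fold test (1 and 4 with DESeq2; median -0.58). The 9 are 13.2% of these genes, against 9.9% of all genes tested. PBX4, of a family of HOX protein partners, rose from 3.6 and 4.68 to 14.3 and 14.2 CPM (1.79). DLX1, PAX2 and DLX4 fell (log2 fold changes -3.01, -1.85 and -1.70). Of 11 SOX genes, 1 rose and 5 fell. SOX4 stood at 592 and 618 CPM in the untreated libraries and 136 and 94.9 CPM in the SP2509 libraries (log2 fold change -2.39 with an SE of 0.167, edgeR adjusted p = 1.03e-07). SOX2, a factor of stem cells, had 17 and 16 counts in the untreated and 0 and 0 in the SP2509 libraries, at least 4.16-fold lower against the floor, and SOX18 fell by 1.67.

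Of 38 GATA, RUNX, TEAD, T-box and AP-2 genes, 16 rose and 10 fell, with a median of 0.11 that turned to -0.28 with total counts. PRDM1, the repressor BLIMP1, stood at 2.74 and 2.94 against 21.4 and 23.9 CPM (2.99), RUNX1 at 28.9 and 24 against 86 and 98.8 CPM (1.80) and OVOL1, an epithelial factor, at 13.4 and 13.2 against 40.3 and 37.1 CPM (1.54). TEAD2 fell from 34.9 and 32.6 to 12 and 10.2 CPM, GATA3 from 2.6 and 2.4 to 0.668 and 0.737 CPM, TBX1 from 1.88 and 1.42 to 0.353 and 0.582 CPM and IKZF2 from 2.46 and 2.47 to 1.1 and 0.388 CPM. Of 25 forkhead genes, 10 rose and 7 fell, with a median of 0.19 that turned to -0.20 with total counts. FOXO3 stood at 67.1 and 61 against 256 and 264 CPM (2.02), FOXD1 at 11.4 and 9.49 against 47.7 and 49.2 CPM (2.21) and FOXJ2 at 30.9 and 27.9 against 93.1 and 102 CPM (1.73). FOXA2 and FOXJ1 fell from under 1 CPM, and the call of FOXJ1 was lost with DESeq2. Of 377 numbered ZNF genes, 116 rose and 135 fell, 21 and 25 past the 2-fold test (12 and 8 with DESeq2), with a median of -0.09.

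Genes known to be held silent by LSD1 and its partners were examined as groups. Of 32 tested neuronal genes known as targets of the repressor REST, which recruits LSD1, 7 rose and 16 fell, 1 and 5 past the 2-fold test (1 and 2 with DESeq2), with a median of -0.47. NCAM1, a neural adhesion molecule, stood at 6.33 and 5.63 CPM in the untreated libraries and 0.55 and 0.233 CPM in the SP2509 libraries (log2 fold change -3.92 with an SE of 0.273, edgeR adjusted p = 9.97e-08), and BDNF, a neurotrophin, at 104 and 116 CPM in the untreated libraries and 27.7 and 22.9 CPM in the SP2509 libraries (log2 fold change -2.12 with an SE of 0.145, edgeR adjusted p = 8.91e-08). GRIN1, an NMDA receptor subunit, fell from 14 and 14 to 4.75 and 5.08 CPM and SNAP25, a protein of synaptic vesicle fusion, from 1.05 and 0.474 to 0.118 and 0.0388 CPM. STX1A, a further synaptic gene, rose from 15.5 and 14.8 to 41.5 and 45.2 CPM (1.51). Of 7 tested myeloid markers that LSD1 inhibitors raise in leukaemia cells, 2 rose and 2 fell, with CD14 at 0.249 and 0.0949 against 0.903 and 0.776 CPM and ITGAX at 2.77 and 2.47 against 0.825 and 0.776 CPM. Of 11 tested cancer-testis antigens, 2 rose and 4 fell, among them PRAME, from 46 and 49.5 to 15.6 and 14 CPM (-1.69), and TEX19 (-1.99).

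Metabolic genes fell more often than they rose. Of 690 tested genes in 21 lists, 182 rose and 347 fell, 42 and 92 past the 2-fold test (27 and 42 with DESeq2, 24 and 182 with total counts), with a median of -0.32. Cytochromes P450 and conjugating enzymes oxidise and conjugate steroids, vitamins and drugs. Of 50 such genes, 5 rose and 33 fell, 0 and 13 past the 2-fold test (0 and 7 with DESeq2; 5 rose at adjusted p under 0.05), with a median of -1.0. CYP24A1 stood at 168 and 172 against 26.8 and 21.3 CPM, SULT1A1, a sulfotransferase, at 18.4 and 17.2 against 4.28 and 3.61 CPM (-2.17), EPHX2, soluble epoxide hydrolase, at 11.2 and 12.4 against 2.63 and 3.06 CPM (-2.05) and GSTA4, a glutathione transferase for lipid aldehydes, at 1.88 and 1.71 against 0.0786 and 0.233 CPM (-3.49).

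Most genes for the breakdown of amino acids and fatty acids fell. Of 35 genes that break down branched-chain amino acids, tryptophan and others, 3 rose and 24 fell, 1 and 10 past the 2-fold test (0 and 4 with DESeq2; median -0.78). GCDH, glutaryl-CoA dehydrogenase, stood at 13.9 and 12.9 against 3.65 and 3.53 CPM (-1.90), HIBCH and ACADSB of valine and isoleucine breakdown at 22.6 and 22.7 against 6.09 and 7.14 CPM (-1.77) and 42.7 and 42.4 against 14.7 and 14.8 CPM (-1.53), and BCKDHB, a subunit of the branched-chain ketoacid dehydrogenase, at 9.99 and 10.1 against 3.3 and 2.68 CPM (-1.75). MUT, methylmalonyl-CoA mutase, was the gene of this list that rose past the 2-fold test (23.1 and 22.3 against 56.6 and 51.4 CPM, 1.25). Of 35 genes of fatty acid oxidation and carnitine, 2 rose and 23 fell, 0 and 4 past the 2-fold test, also with DESeq2 (median -0.49). CPT2, the inner carnitine palmitoyltransferase, stood at 17.5 and 14.5 against 4.12 and 4.46 CPM (-1.90), EHHADH, a peroxisomal enzyme, at 13.8 and 15.2 against 4.56 and 3.34 CPM (-1.88), ACAD9 at 38.1 and 37.2 against 11.3 and 10.1 CPM (-1.81) and CPT1C at 7.19 and 6.77 against 1.81 and 1.98 CPM (-1.88). Of 16 genes of peroxisome biogenesis, 1 rose and 12 fell (median -0.78), PEX11G from 2.35 and 2.18 to 0.196 and 0.116 CPM and PEX7 from 6.58 and 6.45 to 3.02 and 1.9 CPM.

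Glutamine, arginine and proline metabolism was split. Of 29 genes, 11 rose and 14 fell, 4 and 8 past the 2-fold test (3 and 2 with DESeq2). ASNS, asparagine synthetase, stood at 59.1 and 55.6 CPM in the untreated libraries and 669 and 713 CPM in the SP2509 libraries (log2 fold change 3.59 with an SE of 0.107, edgeR adjusted p = 1.40e-10). ARG2, mitochondrial arginase, stood at 7.5 and 8.32 against 56.1 and 55.7 CPM (2.82), and the transaminases GOT1 and GPT2 rose by 1.39 and 1.25. PYCRL, which makes proline, fell from 17.7 and 16.3 to 1.92 and 2.25 CPM (-3.02) and PRODH, which breaks it down, from 2.02 and 1.9 to 0.314 and 0.388 CPM (-2.46), so genes of both synthesis and breakdown of proline were lower. CKB, a creatine kinase, fell from 315 and 300 to 106 and 113 CPM. CKMT1B fell too (-1.58), but it has a near-identical copy. Of 17 polyamine genes, 7 rose and 5 fell. SMOX, spermine oxidase (26 and 26.2 against 79.3 and 81.2 CPM), and ODC1, ornithine decarboxylase (238 and 230.1 against 535 and 535 CPM), rose, and MTAP, which recovers methionine (365 and 369 against 137 and 125 CPM), and PAOX (-1.74) fell.

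In nucleotide metabolism, UPP1, uridine phosphorylase, stood at 8.33 and 9.83 CPM in the untreated libraries and 239 and 285 CPM in the SP2509 libraries (chromosome 7, 48088628 to 48108733, plus strand). Of the 26 pyrimidine genes around it, 7 rose and 13 fell, with the thymidylate genes TYMS (124 and 118 against 44.6 and 45.3 CPM) and TK1 (182 and 164 against 68.3 and 74.5 CPM) and the interferon-induced kinase CMPK2 (2.07 and 2.15 against 0.589 and 0.466 CPM) lower. Of 38 purine genes, 17 rose and 16 fell. NT5E, the surface enzyme CD73 that makes adenosine from AMP, stood at 29.8 and 25.4 against 114 and 119.6 CPM (2.08), while ENPP1, which splits ATP outside the cell, fell from 21.2 and 17 to 4.05 and 4.23 CPM (-2.21) and ENTPD8 from 1.24 and 1.61 to 0.0786 and 0.155 CPM. XDH rose from under 1 CPM, and PFAS of purine synthesis fell from 34.1 and 34.1 to 13.5 and 14.9 CPM.

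In central carbon metabolism few genes passed the 2-fold test. Of 33 genes of glycolysis and lactate, 6 rose and 18 fell, 1 and 3 past the 2-fold test (1 and 0 with DESeq2; median -0.32), with HKDC1, a hexokinase, at 1.85 and 1.99 against 8.21 and 8.38 CPM and PFKM, muscle phosphofructokinase, at 161 and 159 against 71.8 and 65.3 CPM. PDK2 and LDHD fell (log2 fold changes -1.26 and -1.69). Of 29 genes of the tricarboxylic acid cycle, 9 rose and 15 fell, and OGDHL, from 30.4 and 28.8 to 7.58 and 7.1 CPM (-2.01), was the sole member past the 2-fold test. Of 13 genes of the pentose phosphate pathway, 4 rose and 6 fell, with SHPK (-1.88) past the 2-fold test. Of 45 mitochondrial carriers, 16 rose and 13 fell. UCP2 fell from 12.7 and 11.6 to 1.1 and 1.28 CPM (-3.35), SLC25A10, the dicarboxylate carrier, from 15 and 14.7 to 2.99 and 3.88 CPM and SLC25A35 also fell (-1.76), while SLC25A25, a calcium-dependent phosphate carrier, rose from 20.2 and 20.6 to 96.8 and 95 CPM (2.23) and MPC1 by 1.26. Of 29 carbonic anhydrase and vacuolar ATPase genes, 6 rose and 15 fell, CA12 from 10.8 and 10.4 to 2.36 and 2.33 CPM and ATP6V1C2 from 6.03 and 6.93 to 1.34 and 0.892 CPM; CA8 fell by 1.74 and CA3 rose from under 1 CPM.

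Lipid genes were mixed. Of 37 genes of triglycerides and lipid droplets, 13 rose and 18 fell. GPAT3, which starts triglyceride synthesis, stood at 13.7 and 13.4 CPM in the untreated libraries and 171 and 185 CPM in the SP2509 libraries (log2 fold change 3.72 with an SE of 0.109, edgeR adjusted p = 1.38e-10), and MGLL, which completes triglyceride breakdown, at 9.13 and 10.7 CPM in the untreated libraries and 75.8 and 81.5 CPM in the SP2509 libraries (log2 fold change 2.99 with an SE of 0.116, edgeR adjusted p = 1.01e-09). AGPAT4 (1.93) and LPIN1 (1.32) rose, and LPIN3 (-1.53), PNPLA3 (-1.76), FABP5 (-1.38) and FABP6 (-2.63) fell. Of 49 phospholipid genes, 18 rose and 19 fell, with CHKA, choline kinase, at 24.2 and 23.4 against 93 and 88.8 CPM and CHPT1, which completes phosphatidylcholine synthesis, at 8.3 and 8.76 against 28.1 and 28.2 CPM; PLD6 and ETNK2 rose by 1.73 and 1.31, and PLA2G4A, PLCH1 and PLCD1 fell (log2 fold changes -1.82, -1.46 and -1.42). Of 36 sphingolipid genes, 11 rose and 18 fell. Both sphingomyelin synthases rose, SGMS2 from 23.1 and 22.3 to 155 and 136 CPM (2.68) and SGMS1 from 19.5 and 20.4 to 101 and 103 CPM (2.35), and SMPD1, which splits sphingomyelin in lysosomes, rose by 1.62. UGT8, ST3GAL5 and SMPD3 fell (log2 fold changes -1.58, -1.43 and -2.22).

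Of 17 genes of eicosanoid synthesis, 3 rose and 11 fell, 1 and 5 past the 2-fold test (1 and 1 with DESeq2), with a median of -0.98. PTGS2, the inducible cyclooxygenase, rose from 1.16 and 1.42 to 9.66 and 9.31 CPM (2.88), against the direction of most of the list. HPGD, which inactivates prostaglandins, fell from 0.719 and 1.39 to 0 and 0.116 CPM, ALOX15 from 1.49 and 1.39 to 0.236 and 0.194 CPM and NAPEPLD from 11.9 and 12.8 to 4.2 and 4.34 CPM, and PTGDS had 12 and 17 counts in the untreated and 0 and 0 in the SP2509 libraries. Of 23 genes of haem and NAD, 5 rose and 11 fell. ALAS1, the first enzyme of haem synthesis, rose from 61 and 59 to 174 and 170 CPM (1.52), whereas 3 later enzymes of the same pathway fell: ALAD from 19.8 and 20 to 6.32 and 6.56 CPM (-1.62), UROS from 48.2 and 49.4 to 16.5 and 16.9 CPM (-1.54) and CPOX from 719 and 778 to 229 and 193 CPM (-1.83). NAPRT, which makes NAD from nicotinic acid, fell by 1.69. Of 32 aldehyde and aldo-keto reductase genes, 4 rose and 17 fell, AKR1B10 rising from 0.194 and 0.19 to 2.28 and 2.13 CPM and ALDH5A1, ALDH1L2 and DHRS1 falling (log2 fold changes -1.93, -2.67 and -1.90).

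Glycan synthesis was mixed. Of 56 genes of mucin-type and glycolipid glycosylation, 20 rose and 24 fell. GALNT3, which starts mucin-type glycans, stood at 15.8 and 15.9 against 53.3 and 52.3 CPM (1.74), with GALNT9 (2.06) and GALNT13 (2.16) also higher. FUT3, the Lewis fucosyltransferase, rose from 0.636 and 0.727 to 5.22 and 7.45 CPM (3.21) and FUT2, the secretor enzyme, fell from 6 and 6.29 to 2.32 and 1.86 CPM (-1.55). FUT3 has close relatives among which reads may be divided. CHST2, ST3GAL6 and ST6GALNAC3 fell (log2 fold changes -2.25, -1.58 and -2.06). Of 46 genes of glycosaminoglycan synthesis, 14 rose and 22 fell. EXT1, a heparan sulfate polymerase, stood at 27.1 and 26.4 against 118 and 98.6 CPM (2.02) and CSGALNACT2, which starts chondroitin chains, at 20.1 and 19.4 against 85.6 and 81.4 CPM (2.08), while its relative CSGALNACT1 fell from 2.57 and 2.02 to 0.864 and 0.543 CPM. CHST11 and CHST3 rose by 1.44 and 1.41, and HYAL1 and HS6ST3 fell (log2 fold changes -1.84 and -2.50).

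In signalling and the cytoskeleton, 56 of 119 tested genes rose and 41 fell, 24 and 18 past the 2-fold test (22 and 10 with DESeq2, 14 and 25 with total counts), with a median of 0.24 that turned to -0.15 with total counts. Of 29 S100, annexin and cornified envelope genes, 15 rose and 9 fell, 10 and 5 past the 2-fold test (9 and 2 with DESeq2). ANXA3 stood at 82.6 and 88.1 against 321 and 314 CPM (1.90), CSTA, a cystatin of cornified epithelium, at 2.35 and 2.12 against 9.23 and 11.3 CPM (2.20), and S100A2 and S100A11 rose by 1.63 and 1.51. ANXA10, ANXA9, S100A5 and EPPK1 fell (log2 fold changes -1.99, -1.80, -2.0 and -1.46). Of 41 inducible kinases and phosphodiesterases, 23 rose and 12 fell, 7 and 1 past the 2-fold test, also with DESeq2. PIM1, a survival kinase, stood at 16.5 and 13.9 CPM in the untreated libraries and 173 and 185 CPM in the SP2509 libraries (log2 fold change 3.56 with an SE of 0.115, edgeR adjusted p = 2.41e-10), and STK17A and PLK3 rose by 2.36 and 2.07. TRIB3, a pseudokinase of the stress response, rose from 18.4 and 17.8 to 309 and 369 CPM. PDE4B, which degrades cyclic AMP, fell from 119 and 119 to 25.4 and 21.1 CPM (-2.36) and was the sole member lower past the 2-fold test.

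RHOD, a small GTPase, stood at 20.9 and 17.7 against 87.6 and 99.2 CPM (log2 fold change 2.27), RGS16, a regulator of G protein signalling, at 5.01 and 5 against 19.9 and 20.1 CPM (2.0), and RND3 and RHOF rose by 1.47 and 1.46. RHOBTB3 fell from 151 and 138 to 42.5 and 41.4 CPM (-1.79), and RHOBTB1 (-2.98) and RGS6 (-2.14) also fell. Of 17 tubulin and stathmin genes, 4 rose and 8 fell. TUBE1, epsilon-tubulin, stood at 13.9 and 13.8 against 56.4 and 55 CPM (2.01). TUBB2A and TUBB2B, which are near-identical, rose by 1.83 and 2.0, and TUBA1A, TUBA1B, TUBB4A and STMN1 fell (log2 fold changes -1.80, -1.19, -1.23 and -1.30). Reads of these tubulin genes may also be divided among close relatives.

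Genes switched on from near 0 were few. At most 3 counts in each untreated library and at least 30 in each SP2509 library were found for 13 of 60675 genes, or 0.0214%, and the reverse for 8, or 0.0132%. With up to 10 counts allowed in the low group, these numbers were 37 and 184, and the balance turned from genes switched on to genes switched off. These limits apply to counts before scaling. TMM factors were 1.26 and 1.27 for the untreated and 0.974 and 0.953 for the SP2509 libraries. A gene at an unchanged CPM thus has more counts in the untreated libraries, and how far this moved the balance was not tested. SPX, the peptide hormone spexin, went from 2 and 2 counts without the compound to 387 and 370 with it, a ratio of 250 with an exact 95% counting interval of 97.4 to 921. Its siPIR libraries had 19 and 25 counts. CSF2 went from 1 and 0 counts to 111 and 141, with 0 and 0 in siPIR libraries, a ratio of 333 with an interval from 59.3. MMP1 had 1 and 1 against 45 and 81 counts, with 8 and 5 in siPIR libraries. Intervals and floors cover counting error only.

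IL1RL1, the receptor of interleukin 33 (chromosome 2, 102311502 to 102352037), went from 0 and 0 counts to 46 and 50 with SP2509. Against a floor of 3 counts per library this is at least 21.2-fold higher. ROBO4, a receptor known from endothelium, had 0 and 0 against 35 and 51 counts, at least 19-fold higher, and its call was lost with DESeq2. The endothelial genes CDH5 and CLDN5 were at 0 in all 4 libraries. IL16 had 3 and 3 against 54 and 33 counts, FGF1, an acidic fibroblast growth factor, 2 and 2 against 33 and 35, TAGLN3 2 and 1 against 76 and 71, and DAPP1, an adaptor of lymphocyte signalling, 1 and 3 against 66 and 64. The remaining 4 were the long non-coding RNA genes LINC00707 (1 and 0 against 97 and 75 counts), CTD-2066L21.3 (3 and 3 against 91 and 121) and CTD-2066L21.2 (3 and 1 against 68 and 65), of which the last lies within the span of the one before on the same strand of chromosome 5 and may share its reads, and the pseudogene OLFM5P (3 and 3 against 37 and 34). Of these 13, SPX, CSF2, MMP1, IL16 and FGF1 encode secreted proteins. Just outside the limits were AOX1 (5 and 1 against 43 and 35 counts), GZMM (1 and 8 against 62 and 70), RNF39 (5 and 2 against 82 and 70) and KLHDC7B (2 and 1 against 21 and 21).

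**Figure D4:**
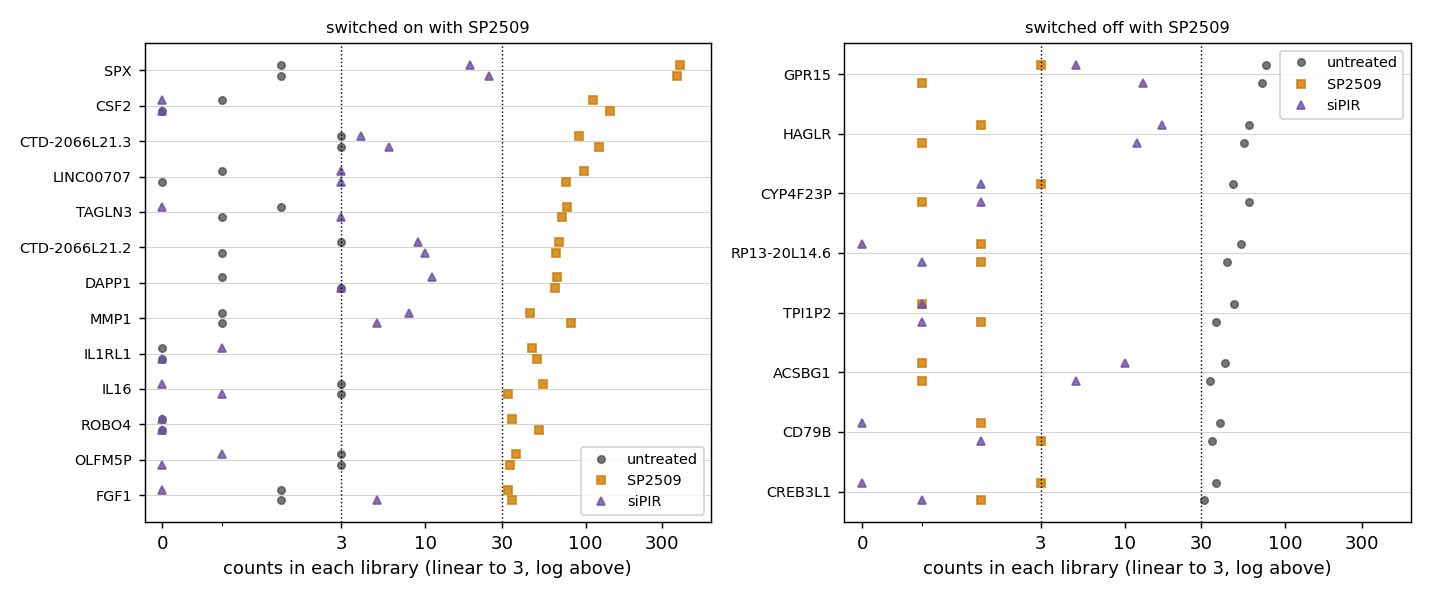
Counts in each library of the 13 genes switched on (left) and the 8 switched off (right), with 2 points each for untreated (circles), SP2509 (squares) and siPIR libraries (triangles), on an axis that is linear up to 3 and logarithmic above. Dotted lines mark the limits of 3 and 30 counts. In counts, siPIR libraries lie nearer to the untreated libraries for the genes switched on and nearer to the SP2509 libraries for most of those switched off. Counts are not scaled, and the siPIR libraries were the smallest after TMM scaling, so their counts run low for a given CPM.

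Genes switched off included GPR15, a chemoattractant receptor, which went from 76 and 71 counts to 3 and 1 with SP2509, a ratio of 27.8 (interval 10.6 to 103). HAGLR, an antisense transcript of the HOXD cluster, had 59 and 55 against 2 and 1 counts, ACSBG1, an acyl-CoA synthetase, 42 and 34 against 1 and 1, CD79B 39 and 35 against 2 and 3, and CREB3L1 37 and 31 against 3 and 2. The other 3 were the pseudogenes CYP4F23P and TPI1P2 and the antisense gene RP13-20L14.6. The siPIR libraries had 5 and 13 counts of GPR15, 17 and 12 of HAGLR and 10 and 5 of ACSBG1. Of the other 5 genes they had at most 2 counts each, as few as with SP2509, but in libraries that were smaller after TMM scaling.

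Among genes without a protein product, LINC00152 stood at 4.92 and 4.08 CPM in the untreated libraries and 97.8 and 83.5 CPM in the SP2509 libraries (4.33) and MIR4435-2HG stood at 6.47 and 5.19 against 56.5 and 53.6 CPM (3.23). These are near-identical copies on chromosome 2 among which reads may have been divided. MYH16, a myosin pseudogene, rose from 1.22 and 0.759 to 28.9 and 32.6 CPM (4.94), AADACP1 from 2.46 and 2.06 to 12.8 and 14.9 CPM and MT-RNR2, the large mitochondrial ribosomal RNA, by 2.67. UCA1, a long non-coding RNA named after urothelial cancer, fell from 223 and 245 to 50.1 and 47.8 CPM (log2 fold change -2.26 with an SE of 0.103, edgeR adjusted p = 3.72e-09), BAIAP2-AS1 from 39.3 and 38.6 to 6.99 and 6.91 CPM (-2.49), and the mitochondrial transfer RNA gene MT-TQ (-2.33), ZNF37BP (-2.07) and GS1-358P8.4 (-2.03) also fell. With no strand setting of the counting given, antisense genes cannot be told apart from the genes opposite.

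By class, 794 antisense genes had a median log2 fold change of -0.54 and 715 lincRNA genes of -0.41, against -0.01 for 13240 protein-coding genes and 0.40 for 389 processed pseudogenes. By span, the median went from -0.21 for 2805 genes of up to 5000 bases to 0.15 for 1721 genes of 100000 to 200000 bases. By GC content of the longest transcript, it went from 0.04 for 2594 genes of up to 40% to -0.33 for the 607 genes above 65%. Lists were also computed with an offset for GC content and length. It moved the medians of bZIP factors, P450 and conjugating enzymes and channels of potassium, sodium and calcium to 1.16, -0.91 and -0.50. Some downward medians shrank or turned. EPH receptors and ephrins went from -0.60 to -0.27 and G protein-coupled receptors from -0.35 to -0.15. The list of TRP, purinergic, piezo and anion channels went from -0.24 to 0.01 and that of the Notch pathway from -0.09 to 0.02.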

How the data were processed

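Total RNA of 6 HCT116 libraries was sequenced, and 4 of them (2 untreated, 2 SP2509) form the comparison. The values are estimated counts per gene, deposited by the authors as 1 table. Of these values 89.04% are whole and the rest fractional, which the sources used here do not explain, and they were rounded to whole counts before testing. Per the submitters' processing notes, FastQC 0.11.8, Trimmomatic 0.32, HISAT2, featureCounts of Subread 1.6.2 and edgeR 3.26.4 were used with GRCh38. No strand setting is given in the sources used here.

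From the counts, genes passing edgeR's filterByExpr were scaled by TMM and fitted with edgeR 4.0.16 (R 4.3.3, robust quasi-likelihood, all 6 libraries in 3 groups, 3 residual degrees of freedom), with Benjamini-Hochberg adjustment over all 16503 genes tested. The 2-fold test was glmTreat against a log2 fold change of 1. The script was tested on simulated data. DESeq2 1.42.0 was an alternative, with other scalings, filters, a GC and length offset, blocks and left-out libraries. Gene positions are from GENCODE 29, where 57055 of the gene identifiers matched. Total counts per library limit the precision of low genes: 3 counts are 0.104 to 0.120 CPM before TMM scaling.

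The named genes were the 20 largest rises and falls among genes averaging 3 or more in log2 CPM, up to 4 members of each list in each direction by the 2-fold test, genes switched on or off, and KDM1A, TERT and PIR. In all 75 lists were tallied, beside 4 marker lists and 2 lists of genes left out of the ranking, and some genes and 1 list are not reported here. The comparison, its lists and its rules were chosen with earlier results of these data known. The labels do not say whether replicate numbers pair the samples, and the main fit did not pair them.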

Additional observations from a re-analysis of the deposited data

How the results depend on the processing

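Against 11316 genes past adjusted p 0.05 (5521 higher, 5795 lower) and 2960 past the 2-fold test (1326 higher, 1634 lower), total counts alone gave 3363 higher calls and 731 higher and 3049 lower past the 2-fold test, and DESeq2 gave 1533 past the 2-fold test, 648 of them lower. With the GC and length offset 51% of the 2-fold calls were higher, against 44.8%. Leaving out 1 library at a time gave 9340 to 12578 calls (4626 to 6214 higher, 4657 to 6364 lower) and 2191 to 3346 past the 2-fold test (1049 to 1527 higher, 1083 to 1819 lower). The fewest lower calls, 1083, came without SP2509 replicate 2, when 51.5% of the 2-fold calls were higher. The cause was not tested. Where an arm was left with 1 library, that library was assumed to vary like the other groups.

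With the replicate block, 11179 genes passed adjusted p 0.05 and 2892 the 2-fold test, and on the 4 libraries alone 12356 and 3307 passed without the block and 12031 and 3217 with it. The sample descriptions also carry numbers from 10 to 12, whose meaning the labels do not give. With these as a block, 12016 genes passed adjusted p 0.05 and 3203 the 2-fold test. Deviations of libraries with the same replicate number from their group means correlated at -0.02, and replicate numbers were not used as pairs in the main fit. Of 432 named genes, 430 passed the 2-fold test, which was a condition for naming most of them. The counts that follow thus describe genes chosen for their large changes and not all genes. Of these 430, 424 kept their call at adjusted p 0.05 in every alternative that tested them and 280 kept the 2-fold call. The 2-fold call was lost with DESeq2 for 130. The one direction that reversed was that of PIR, from -0.277 without SP2509 replicate 1 to 0.0529 without SP2509 replicate 2. Over all lists and alternatives, 899 list medians moved by less than 1 SD between the SP2509 libraries and 451 by more. Low counts limit the genes switched on or off, 13 and 8 with the limits of 3 and 30 counts, 37 and 184 with up to 10 counts in the low group, and 2 and 0 with at least 100 in the high group.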
